A study of Mus musculus with 10 samples.

Results

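The 3 mammalian TGF-β ligand genes (Tgfb1, Tgfb2 and Tgfb3) and the 5 receptor genes (Tgfbr1, Tgfbr2, Acvrl1, Tgfbr3 and Eng) were followed through RNA-seq of mouse lens epithelium. They are 8 of the 50763 genes of the count table and were taken by symbol. All animals were 3 weeks old and of the inbred FVB/N background. The WT group (3 libraries) carried no transgene. OVE853 (3 libraries) and OVE918 (4 libraries) are a pair of homozygous transgenic families that develop anterior subcapsular cataract plaques. In both, the promoter of the mouse αA-crystallin gene, a lens gene, drives human TGF-β1, in a version that needs no activation once secreted. Each library pooled whole epithelial explants from up to 9 (WT, OVE853) or 7 (OVE918) mice, so plaque and non-plaque cells were measured together, and fewer cells of a type cannot be told apart from less RNA per cell.

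TGF-β ligands are secreted as dimers in a latent form, held by their propeptides and by extracellular binding proteins until they are activated. The active dimer joins the type II receptor, Tgfbr2, which phosphorylates a type I receptor, usually Tgfbr1 and in endothelium also Acvrl1, and the type I receptor then phosphorylates SMAD proteins. Betaglycan (Tgfbr3) and endoglin (Eng) are co-receptors without kinase activity, and betaglycan is best known for presenting TGF-β2, the isoform that binds Tgfbr2 weakly by itself. In the lens, TGF-β is known for driving epithelial cells towards a myofibroblast-like state.

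The libraries held 24073311 to 31908525 assigned read pairs each. Levels are given as CPM (read pairs relative to library size, with TMM factors) for comparing libraries, and as FPKM (per kilobase of exon) for comparing genes. A gene was said to differ at a false discovery rate (FDR) of at most 0.05 in edgeR's quasi-likelihood test, and to be a DEG if its log2 fold change was also at least 1 in size. The lens epithelium markers, nearly all of whose sum was Cryaa and Cryab, reached 154700 to 160000 CPM in WT, 104900 to 119500 CPM in OVE853 and 129500 to 196600 CPM in OVE918. One of them, the connexin gene Gja1, was at 543.4 ± 30.0 CPM in WT, 109.7 ± 15.1 CPM in OVE853 and 65.7 ± 10.2 CPM in OVE918. It was the only DEG among the 12 lens epithelium markers in each line. Of the 12, 4 were lower and none higher in each line, where 15.8% (OVE853) and 19.0% (OVE918) of all genes differed. The median log2 fold changes of the 12 against WT were -0.197 in OVE853 and -0.175 in OVE918. WT replicate 3 and OVE918 replicate 4 lay farthest from their own groups, and WT replicate 3 carried 954.9 CPM of summed retinal markers against 150.5 to 168.0 CPM in the other WT libraries.

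In WT epithelium Tgfb2 was the leading ligand per length (55.7 ± 4.44 FPKM, SD, n = 3), followed by Tgfb1 (24.5 ± 2.89 FPKM) and Tgfb3 (4.79 ± 0.641 FPKM), and the libraries of these 3 genes did not overlap. Of the receptors, Tgfbr1 stood at 8.69 ± 1.89 FPKM and Tgfbr3 at 6.01 ± 1.46 FPKM, and their libraries overlapped. The remaining receptors were far lower, with Eng at 0.506 ± 0.222 FPKM, Tgfbr2 at 0.270 ± 0.0731 FPKM and Acvrl1 at 0.254 ± 0.0383 FPKM, the last pair overlapping. The type II receptor was thus among the lowest of the 8 genes, with 41 to 77 read pairs per WT library. In both transgenic lines the Tgfb1 row took the first rank and Tgfb2 the second, while Tgfbr3 ranked below Tgfb3. In OVE918 the libraries of Tgfbr1 overlapped those of Tgfb3, and those of Tgfbr3 overlapped those of Eng.

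Of the 8 genes, 5 (Tgfb1, Tgfb2, Tgfb3, Tgfbr1 and Tgfbr3) reached 2 FPKM in at least 5 of the 10 libraries and were tested among 11097 genes. Tgfbr2, Eng and Acvrl1 did not, and their fold changes come from a second fit with edgeR's own low-count filter, filterByExpr, over 18058 genes. In the first fit, 2 of the 5 tested genes differed in OVE853 (Tgfb1 higher, Tgfbr3 lower), against 15.8% of all genes tested. In OVE918, 3 of the 5 differed (Tgfb1 and Tgfb3 higher, Tgfbr3 lower), against 19.0% of all genes. Tgfb1 and Tgfbr3 were DEGs in both lines, where 4.42% and 5.6% of all genes were. Between the lines 1 of the 5, Tgfb1, differed, against 1.32% of all genes, and it was a DEG, as 0.487% of all genes were. With the second fit 3 of 8 differed in OVE853 (13.6% of all genes), 5 of 8 in OVE918 (16.9%) and 1 of 8 between the lines (0.377%), Eng being added in both lines and Acvrl1 in OVE918. Libraries of both groups that did not overlap were found for 5 of the 8 in OVE853 against WT (41.4% of all genes in the second fit, and 45.4% for the 4 of 5 in the first), for 6 of the 8 in OVE918 against WT (25.8%, and 27.2% for the 3 of 5) and for 3 of the 8 between the lines (24.3%, and 29.5% for the 3 of 5). The lines were compared with the same 3 WT libraries, so their differences from WT are not independent of each other.

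**Figure D1:**
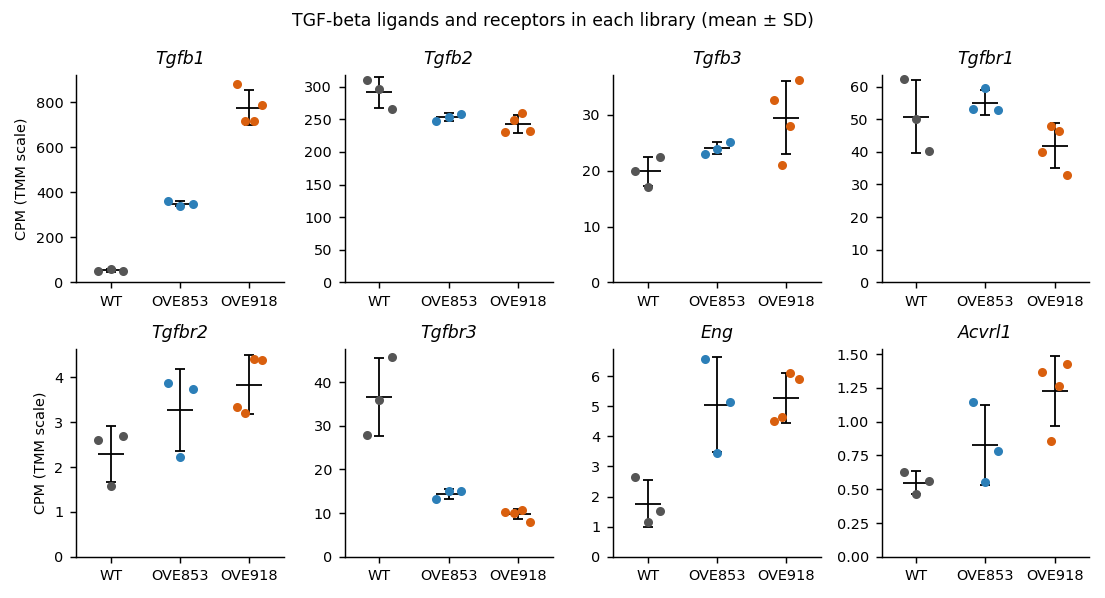
CPM of the 8 genes in each library, 1 point per library, with the mean (horizontal mark) and SD (bars) of WT (n = 3), OVE853 (n = 3) and OVE918 (n = 4). The axes are linear from 0 and differ between panels. The 3 groups do not overlap for Tgfb1 or Tgfbr3, while those of Tgfbr1 overlap between WT and each line.

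**Figure D2:**
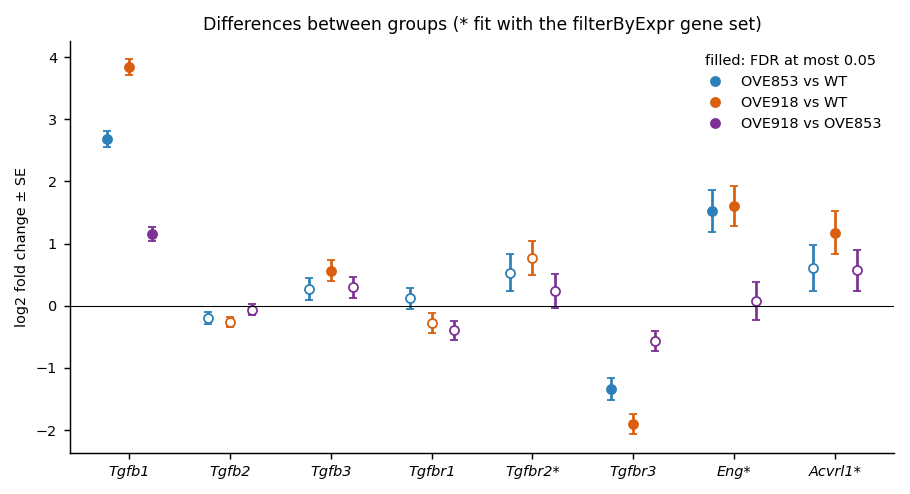
Log2 fold change of each gene with its standard error in the 3 comparisons. Filled points passed an FDR of 0.05, and genes with an asterisk come from the fit with the filterByExpr gene set. Tgfb1 is the only gene with a filled point in the comparison of the lines.

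Tgfb1 (chromosome 7, 25386390-25404506, plus strand, GRCm39) encodes the isoform that the transgene also carries, in its human form. Counts were made against the mouse genome alone, so reads of the human sequence that aligned to the mouse gene are part of the Tgfb1 row and cannot be told apart from reads of the mouse transcript. Its level was 50.6, 61.7 and 50.7 CPM in the WT libraries. In OVE853 it was 361, 339 and 349 CPM. In OVE918 it was 881, 715, 717 and 788 CPM. The groups were fully apart, in the order WT, OVE853, OVE918, and both lines labelled as overexpressing lay above WT. The row was 6.43-fold higher in OVE853 than in WT (log2 fold change 2.69, SE 0.13, FDR 7.06e-07) and 14.3-fold higher in OVE918 (3.83, SE 0.13, FDR 1.03e-07). OVE918 exceeded OVE853 2.22-fold (1.15, SE 0.11, FDR 0.00388).

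Tgfb1 has 15 genes of the count table within 100 kb, of which 8 were tested. The tested genes flanking it most closely, B9d2 (258 bp upstream of its start) and Ccdc97, did not differ in either line: B9d2 had log2 fold changes of -0.36 (FDR 0.124) in OVE853 and -0.17 (FDR 0.437) in OVE918, and Ccdc97 of 0.07 (FDR 0.657) and 0.02 (FDR 0.898). In each line 2 of the 8 neighbours differed, where 15.8% of all genes tested did in OVE853 and 19.0% in OVE918. Bckdha, a subunit of the branched-chain ketoacid dehydrogenase, was lower in both (-0.60, FDR 0.00895, and -0.53, FDR 0.00767). Axl, a receptor tyrosine kinase, was higher, with means and SDs of 17.0 ± 3.83, 35.1 ± 9.56 and 38.4 ± 10.8 CPM in WT, OVE853 and OVE918 (log2 fold changes 1.05, FDR 0.0273, and 1.18, FDR 0.00954). By edgeR, 4 of the 8 had an unadjusted p under 0.05 in OVE853 (Bckdha, Exosc5, B9d2 and Axl) and 2 in OVE918 (Bckdha and Axl). Between the lines 0 of the 8 differed by edgeR or DESeq2, and 0 had an unadjusted p under 0.05.

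**Figure D3:**
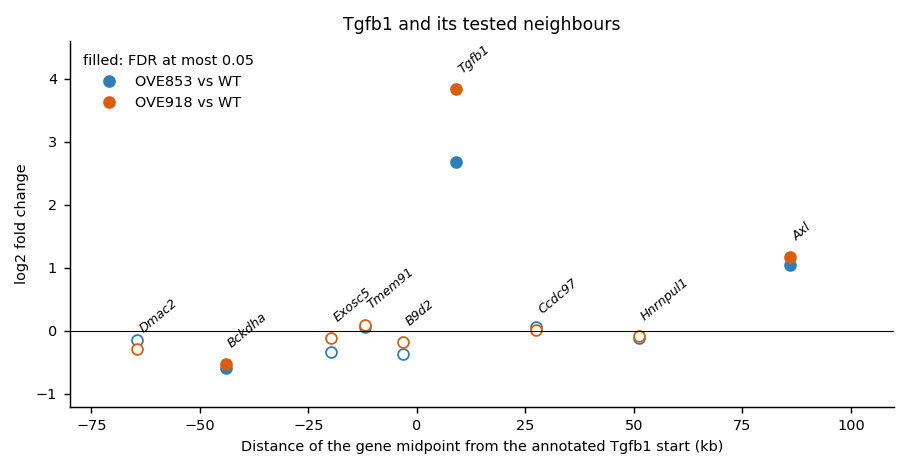
Log2 fold change against WT of Tgfb1 and its 8 tested neighbours, plotted by the distance in kb of each gene's midpoint from the annotated Tgfb1 start (OVE853 blue, OVE918 orange, filled at an FDR of at most 0.05). Tgfb1 stands at 2.69 and 3.83, and of the neighbours only Bckdha and Axl are filled.

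The start regions of Tgfb1 and Tgfb2 are shown because these ligands lead the 3 in different groups and the αA-crystallin promoter of the transgene is neither of them. The letters are from RefSeq on GRCm38.p6, 5′ to 3′ on the gene's strand (Tgfb1 chr7:25686752-25686964, plus, and Tgfb2 chr1:186706098-186706239, minus), and stop where an exact match to GRCm39 meets the first annotated exon. Capitals mark GGGCGG or its reverse complement CCGCCC (a GC box, bound by Sp1-type factors) and CAGAC or GTCTG (the core of SMAD-binding elements), which do not overlap each other.
Tgfb1: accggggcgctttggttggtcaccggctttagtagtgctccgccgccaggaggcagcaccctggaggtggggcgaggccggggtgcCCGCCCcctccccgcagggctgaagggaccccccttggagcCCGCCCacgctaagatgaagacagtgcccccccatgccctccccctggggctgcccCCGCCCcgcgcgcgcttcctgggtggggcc
Tgfb2: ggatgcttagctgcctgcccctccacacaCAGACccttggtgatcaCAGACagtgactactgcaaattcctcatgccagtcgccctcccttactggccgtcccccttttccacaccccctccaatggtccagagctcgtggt

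The Tgfb1 stretch is 74.6% G and C and holds 3 GC boxes (5 in the full 250 bases before the RefSeq start) and no CAGAC core. The Tgfb2 stretch is 58.5% G and C and holds 2 CAGAC cores and no GC box. Among 32851 RefSeq start regions, 32.7% held a GC box and 42.2% a CAGAC core in the 250 bases before the start, searched on both strands. These are matches of letters only. Start regions of 5 of the 8 genes were matched, and those of Tgfb3, Tgfbr3 and Acvrl1 were not analysed here.

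Tgfb2 (chromosome 1, 186354985-186438294, minus strand) holds no transgene sequence. Its level was 311, 297 and 266 CPM in WT, 247, 254 and 258 CPM in OVE853, and 231, 248, 259 and 232 CPM in OVE918. All 7 transgenic libraries lay below the lowest WT library, with small margins, and the lines overlapped. The differences did not pass the test, with log2 fold changes of -0.20 (SE 0.09, FDR 0.155) in OVE853 and -0.26 (SE 0.09, FDR 0.0589) in OVE918. The OVE918 difference passed without WT replicate 3 (-0.33, FDR 0.0282) and with DESeq2 (-0.26, FDR 0.0141).

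Tgfb3 (chromosome 12, 86102756-86126301, minus strand) was the lowest ligand in every library. Its level was 20.03, 17.2 and 22.5 CPM in WT, 23.1, 23.8 and 25.2 CPM in OVE853, and 32.6, 21.1, 28.0 and 36.3 CPM in OVE918. The OVE853 libraries lay just above all WT libraries, while OVE918 replicate 2 fell inside the WT range. Tgfb3 was 1.48-fold higher in OVE918 (log2 fold change 0.57, SE 0.17, FDR 0.0385), and its difference in OVE853 was 0.27 (SE 0.18, FDR 0.300). The OVE918 call held in only 2 of the 10 fits with 1 library left out, those without WT replicate 3 or OVE918 replicate 2, the FDR ranging from 0.00498 to 0.132. The difference between the lines was 0.29 (SE 0.17, FDR 0.305).

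Summed over the 3 ligands, the level per length was 85.0 ± 5.18 FPKM in WT (SD, n = 3), 212 ± 4.44 FPKM in OVE853 (n = 3) and 404 ± 34.1 FPKM in OVE918 (n = 4), with the mouse Tgfb1 length used for the whole Tgfb1 row. Tgfb1 made up 26.2, 31.4 and 28.9% of this sum in WT, 75.5, 73.8 and 73.9% in OVE853, and 88.4, 86.0, 85.2 and 87.0% in OVE918. The groups did not overlap. In exact two-sided permutation tests over libraries, each comparison gave the smallest p its design allows, 0.1 for OVE853 against WT (3 against 3), 0.0571 for OVE918 against either group and 0.0167 for WT against all 7 transgenic libraries. Adjusted over the 12 comparisons of shares made, no p fell below 0.0980.

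**Figure D4:**
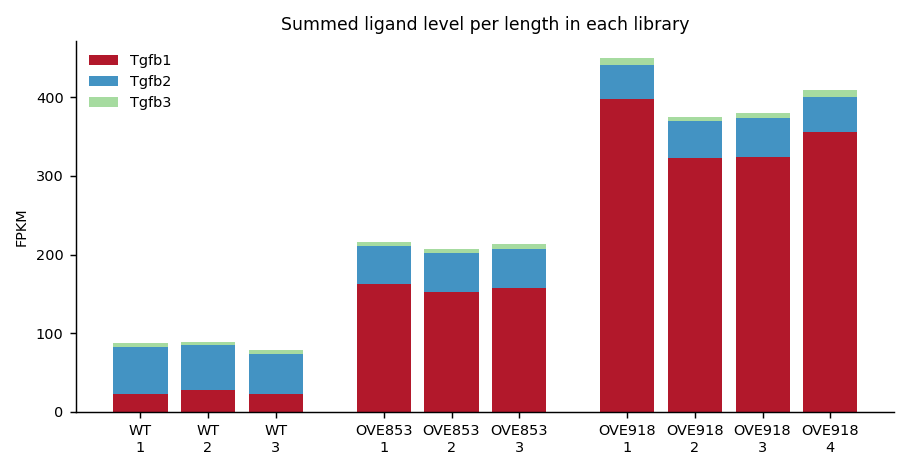
FPKM of Tgfb1, Tgfb2 and Tgfb3 stacked for each library (numbers under the bars are replicates), with the axis from 0. Tgfb2 is the largest part in WT, and the Tgfb1 row, which can hold transgene reads, is the largest in OVE853 and OVE918.

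Leaving the Tgfb1 row out, Tgfb2 made up 90.4 to 93.2% of Tgfb2 plus Tgfb3 in the WT libraries, 89.1 to 89.5% in OVE853 and 83.6 to 90.3% in OVE918. Every transgenic library lay below every WT library, the nearest being OVE918 replicate 2 (90.35%) and WT replicate 3 (90.37%). The mean of the 7 transgenic libraries minus that of WT was -4.19 percentage points (exact permutation p = 0.0167, adjusted 0.0980).

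Tgfbr1 (chromosome 4, 47353134-47414931, plus strand), the type I receptor of most cells, was 62.2, 50.1 and 40.2 CPM in WT, 53.2, 59.4 and 52.7 CPM in OVE853, and 39.9, 48.1, 46.4 and 32.9 CPM in OVE918. The WT libraries overlapped both lines, and OVE918 replicate 4 was the lowest of all. It did not pass the test in OVE853 (log2 fold change 0.12, SE 0.17, FDR 0.647) or OVE918 (-0.28, SE 0.16, FDR 0.252). All OVE918 libraries lay below all OVE853 libraries (-0.40, SE 0.16, FDR 0.178).

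Tgfbr2 (chromosome 9, 115913361-116004800, minus strand), the type II receptor, was covered by 41 to 128 read pairs per library. Its level was 2.59, 1.58 and 2.7 CPM in WT, 3.87, 2.22 and 3.74 CPM in OVE853, and 3.34, 3.203, 4.42 and 4.38 CPM in OVE918. OVE918 lay above WT without overlap, and OVE853 overlapped both. Neither difference from WT passed the test of the second fit (0.53, SE 0.30, FDR 0.235 in OVE853, and 0.77, SE 0.28, FDR 0.0851 in OVE918). The OVE918 difference passed with DESeq2 (0.77, FDR 0.0429).

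Acvrl1 (chromosome 15, 101025996-101043217, plus strand), the other type I receptor, had only 12 to 38 read pairs per library. Its level was 0.626, 0.462 and 0.561 CPM in WT, 1.15, 0.556 and 0.783 CPM in OVE853, and 1.37, 0.857, 1.26 and 1.43 CPM in OVE918. OVE918 lay above WT without overlap, while OVE853 replicate 2 sat among the WT libraries. Acvrl1 was 2.26-fold higher in OVE918 (log2 fold change 1.18, SE 0.35, FDR 0.0392 in the second fit), and its difference in OVE853 was 0.61 (SE 0.36, FDR 0.268). The OVE918 call held in 4 of the 10 fits with 1 library left out, with FDR from 0.0331 to 0.103.

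Acvrl1 made up 2.43 to 3.64% of Acvrl1 plus Tgfbr1 per length in WT, 2.47 to 5.51% in OVE853 and 4.598 to 10.5% in OVE918. Tgfbr1 was the larger part of this pair in every library. The mean share was 4.71 percentage points higher in OVE918 than in WT (exact permutation p = 0.0571, the smallest this design allows, adjusted 0.0980).

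Tgfbr3 (chromosome 5, 107249402-107437623, minus strand), which encodes betaglycan, was the only one of the 8 genes called lower in either fit. Its level was 28.0, 36.0 and 45.8 CPM in WT, 13.2, 15.2 and 15.1 CPM in OVE853, and 10.3, 10.0, 10.7 and 8.07 CPM in OVE918. The 3 groups were fully apart, and WT replicate 3 was the highest. Tgfbr3 was 2.53-fold lower in OVE853 than in WT (log2 fold change -1.34, SE 0.17, FDR 0.000619) and 3.74-fold lower in OVE918 (-1.90, SE 0.16, FDR 2.03e-05). It was a DEG in both lines in all fits run, and without WT replicate 3 the values were -1.15 (FDR 0.000635) and -1.71 (FDR 1.89e-05). The difference between the lines was -0.57 (SE 0.16, FDR 0.0951), which passed with DESeq2 (-0.55, FDR 0.0300), in a fit of the 2 lines alone (-0.54, FDR 0.0466) and without WT replicate 3 (-0.57, FDR 0.0393).

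Some markers of tissues that border the lens were lower in the same libraries as Tgfbr3. The 12 ciliary and pigmented epithelium markers summed to 247.9 to 397.5 CPM in WT, 79.2 to 105.8 CPM in OVE853 and 51.5 to 88.9 CPM in OVE918. With the filterByExpr gene set, 13.6% of all genes tested differed in OVE853 and 16.9% in OVE918. Of the 11 markers tested in it, 6 were lower in each line and none was higher, and none of the 12 was at 0 in a whole group. The other 5 (Tyrp1, Dct, Pmel, Mlana and Mitf) did not pass, with log2 fold changes of -0.79 (Tyrp1) to 0.52 (Mlana) in OVE918. Within WT, the lowest sum was in replicate 2 and the lowest Tgfbr3 in replicate 1. The 8 corneal markers summed to 1100, 1608 and 2614 CPM in WT replicates 1 to 3, which rose in the same order as Tgfbr3. Over the transgenic libraries their sums were 191.6 to 369.5 CPM. Aldh3a1 (928 CPM in WT) and Ptgds (836 CPM) made up nearly all of the WT sums, the other 6 being at 0 to 6.53 CPM in WT. Krt12, which defines corneal epithelium, was at 2.11 CPM in WT and at 0 in both lines, and Kera, which marks keratocytes, was at 0 in every group. The part of these cells in the Tgfbr3 difference was not tested.

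Eng (chromosome 2, 32535543-32574661, plus strand), which encodes endoglin, was 2.64, 1.15 and 1.51 CPM in WT, 6.59, 3.45 and 5.14 CPM in OVE853, and 4.50, 4.66, 6.09 and 5.91 CPM in OVE918. All 7 transgenic libraries lay above all WT libraries, and the lines overlapped. Eng was 2.89-fold higher in OVE853 (log2 fold change 1.53, SE 0.34, FDR 0.0160) and 3.05-fold higher in OVE918 (1.61, SE 0.32, FDR 0.00650) in the second fit. Without OVE853 replicate 1 (1.27, FDR 0.0772) or OVE853 replicate 3 (1.49, FDR 0.0608) the OVE853 call was lost, and the OVE918 call held with each library left out. The lines did not differ by the test (0.08, SE 0.30, FDR 0.913).

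Endoglin is known from endothelial cells and activated macrophages, among others. The 15 endothelial markers summed to 93.8 to 219.8 CPM in WT, 92.7 to 127.5 CPM in OVE853 and 101.6 to 119.0 CPM in OVE918, with no marker at 0 in a whole group. For comparison with the marker counts that follow, 13.6% of all genes in the filterByExpr gene set differed in OVE853 and 16.9% in OVE918. With this gene set, 1 of the 14 endothelial markers tested was higher in OVE853 and none lower. In OVE918, 4 were higher and 1 lower, and the median log2 fold changes were 0.87 in OVE853 and 1.48 in OVE918. When WT replicate 3 was left out, 2 of 15 tested were higher and none lower in OVE853. In OVE918, 3 were then higher and 1 lower, and the medians were 0.27 and 0.78. Kdr, a VEGF receptor and the most abundant of the list in WT, was at 47.8 ± 56.3 CPM in WT, 10.1 ± 3.88 CPM in OVE853 and 9.62 ± 3.76 CPM in OVE918 (log2 fold changes -2.25, FDR 0.0923, and -2.32, FDR 0.0605). Flt1, another VEGF receptor, was at 34.8 ± 24.8, 13.4 ± 4.29 and 9.87 ± 3.58 CPM and was the marker called lower in OVE918 (-1.79, FDR 0.0209). The higher ones included Cdh5, the endothelial cadherin, at 1.12 ± 0.745 CPM in WT, 5.24 ± 1.74 CPM in OVE853 (log2 fold change 2.24, FDR 0.0166) and 3.72 ± 0.423 CPM in OVE918 (1.76, FDR 0.0279). Pecam1 stood at 0.806 ± 0.696, 2.18 ± 1.02 and 3.22 ± 1.46 CPM in the same order and passed in OVE918 (2.04, FDR 0.0389). Tek moved opposite to Kdr, at 8.07 ± 6.70, 37.4 ± 4.10 and 33.3 ± 1.83 CPM (2.22, FDR 0.0712, and 2.06, FDR 0.0744). The fold changes of Kdr and Tek are from the first fit, where neither passed. The 12 macrophage markers summed to 20.2 to 48.1 CPM in WT, 47.3 to 75.6 CPM in OVE853 and 32.5 to 82.8 CPM in OVE918, and with the same gene set 1 of the 12 was lower in OVE853, and 2 were higher and 1 lower in OVE918, with median log2 fold changes of 1.02 and 0.83. Without WT replicate 3, 2 were higher in OVE853 and 3 in OVE918, and 1 was lower in each line, with medians of 1.20 and 1.27. With all libraries the marker called lower was Mrc1, at 2.92 ± 1.36 CPM in WT, 0.159 ± 0.0337 CPM in OVE853 and 0.240 ± 0.162 CPM in OVE918. The 8 pericyte markers summed to 115 to 154.5 CPM in WT, 154.5 to 193.2 CPM in OVE853 and 122.7 to 159.2 CPM in OVE918, with no marker at 0 in a whole group, and 2 of the 8 (Cspg4 and Des) were higher in both lines and none was lower. Cspg4 was at 1.06 ± 0.522, 5.60 ± 2.35 and 8.98 ± 2.51 CPM, and Des at 0.204 ± 0.131, 2.17 ± 1.51 and 3.91 ± 1.27 CPM. The part of endothelial cells, pericytes and macrophages in the Eng and Acvrl1 differences was not tested.

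**Figure D5:**
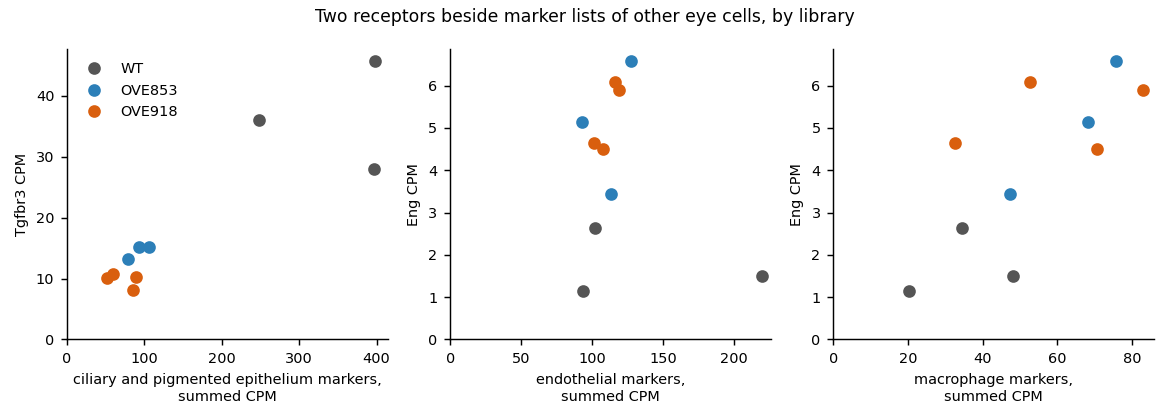
Tgfbr3 CPM against the summed CPM of ciliary and pigmented epithelium markers, and Eng CPM against the sums of endothelial and macrophage markers, 1 point per library (WT grey, OVE853 blue, OVE918 orange). WT lies apart on both axes for Tgfbr3, and the endothelial sums of the groups overlap, WT replicate 3 having the highest (219.8 CPM) with 1.51 CPM of Eng.

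The genes whose log2 CPM followed each tested gene most closely over the 10 libraries were listed as a description. The libraries are shared by all of them, and each correlation mixes differences between groups with spread within groups, which were not separated. For the Tgfb1 row these were Opalin (Pearson r = 0.99), Spry1 (0.99), Timp1 (0.98), Gal (0.98) and Sptssa (0.98). Timp1, an inhibitor of metalloproteinases, averaged 10.7 CPM in WT, 56.8 CPM in OVE853 and 108.6 CPM in OVE918. Spry1, a feedback inhibitor of receptor tyrosine kinase signaling, averaged 15.4, 41.8 and 59.3 CPM. The neuropeptide gene Gal averaged 0.886, 40.3 and 113.3 CPM, Sptssa, a subunit of serine palmitoyltransferase, 94.9, 143.8 and 157 CPM, and Opalin, a gene known from oligodendrocytes, 0, 3.50 and 14.8 CPM.

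For Tgfbr3 the closest were Bst1 (r = 0.996, 56.6, 12.2 and 6.26 CPM in WT, OVE853 and OVE918), Steap2 (0.99) and Slc41a1 (0.99), with log2 fold changes against WT of -0.998 (Slc41a1 in OVE853) to -3.17 (Bst1 in OVE918). For Tgfb2 they were Cep57 (0.97), Pxn (0.95) and Cnksr3 (0.94). For Tgfb3 they were Cbr4 (0.94), Wdr74 (0.93) and Flot1 (0.93), and for Tgfbr1 Oxsr1 (0.98), Man1a2 (0.98) and Rassf4 (0.97). Of these 9 genes Cnksr3 had the largest fold change against WT, -0.76 on the log2 scale in OVE918.

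The other genes of the pathway were read in the first fit, in lists made with earlier results known. For comparison with the counts of each list, 15.8% of all genes tested differed in OVE853 and 19.0% in OVE918, higher and lower together. Of the latency and activation genes, which hold and release the ligands, 2 of 15 tested were higher and none lower in OVE853, and 3 were higher and 3 lower in OVE918, with median log2 fold changes of 0.23 and 0.02 against -0.01 and 0.01 over all genes (0.14 and -0.09 for the list without WT replicate 3). The DEGs of both lines were Mmp2, a gelatinase, which rose from 7.99 ± 3.17 CPM to 21.0 ± 2.91 in OVE853 and 28.8 ± 9.67 CPM in OVE918, and Ltbp4, a latent TGF-β binding protein, which rose from 6.10 ± 0.763 to 14.0 ± 1.34 and 17.9 ± 2.66 CPM.

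Of the extracellular binders, 4 of 11 tested were higher and 1 lower in OVE853, and 4 were higher and 3 lower in OVE918, with medians of 0.37 and 0.46 (0.16 and 0.13 without WT replicate 3). Fst, the activin-binding follistatin, rose from 5.17 ± 0.778 CPM to 19.1 ± 1.21 and 26.2 ± 12.2 CPM, and Nrp2, a neuropilin, from 11.6 ± 4.75 to 26.8 ± 3.23 and 27.4 ± 6.16 CPM. Fmod, the matrix proteoglycan fibromodulin, fell from 146.2 ± 14.5 CPM to 72.8 ± 8.75 and 30.4 ± 9.17 CPM and differed between the lines (log2 fold change -1.26, FDR 0.0347).

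Of the 6 tested other type I and type II receptors, 0 differed by edgeR in any comparison, with 3 at an unadjusted p under 0.05 in OVE853, 0 in OVE918 and 2 between the lines, and medians of 0.28 in OVE853 and 0.05 in OVE918 (0.24 and -0.04 without WT replicate 3). With DESeq2, 1 differed in OVE853 (Bmpr1a, a BMP receptor) and 1 between the lines (Acvr1b, an activin receptor), both named after their values were seen. Of the receptor partners, 2 of 19 were higher and 1 lower in OVE853, and 1 was higher and 2 lower in OVE918, with medians of 0.08 and 0.03 (0.14 and -0.003 without WT replicate 3). Dab2, an endocytic adaptor that binds the receptors, rose from 5.05 ± 0.202 CPM to 16.7 ± 0.807 and 14.7 ± 2.86 CPM. Bambi, a pseudoreceptor without a kinase domain, fell from 24.9 ± 7.73 CPM to 10.96 ± 0.637 and 6.28 ± 1.42 CPM. Among SMADs and their nuclear partners, 2 of 15 were higher and 1 lower in OVE853, and 1 was higher and 1 lower in OVE918, with no DEG and medians of 0.26 and 0.03 (0.16 and -0.10 without WT replicate 3).

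Of the transcriptional targets, 6 of 20 tested were higher and 2 lower in OVE853, and 8 were higher and 4 lower in OVE918, with medians of 0.44 and 0.24. The genes with the largest fold changes in both lines are given, and all were chosen for that size. Tgfbi, a matrix protein named for its induction by TGF-β, went from 3.63 ± 0.627 CPM in WT to 84.5 ± 25.1 CPM in OVE853 and 126.4 ± 25.7 CPM in OVE918. Tagln, an actin-binding protein of smooth muscle, went from 0.902 ± 0.553 to 8.35 ± 3.03 and 19.5 ± 12.8 CPM, and Tnc (tenascin C) from 5.30 ± 5.19 to 43.2 ± 14.1 and 73.7 ± 11.7 CPM. Col1a1, a chain of type I collagen, went from 5.28 ± 2.27 to 36.6 ± 20.9 and 47.4 ± 23.9 CPM, and Fn1 (fibronectin) from 14.9 ± 1.15 to 50.7 ± 11.6 and 85.3 ± 17.2 CPM. Between the lines 0 of these 5 differed by edgeR, the FDR ranging from 0.0705 for Fn1 to 0.652 for Col1a1, with 3 at an unadjusted p under 0.05, and 1 (Fn1) differed by DESeq2. Bambi, given above, is also on this list. Among the targets that were lower, Ccn2, a matricellular protein, went from 211.6 ± 52.9 to 122 ± 29.0 and 114.7 ± 20.2 CPM (log2 fold changes -0.79, FDR 0.0313, and -0.88, FDR 0.0101), and Ltbp2, a latent TGF-β binding protein family member, from 145 ± 32.5 to 91.7 ± 14.96 and 27.7 ± 10.7 CPM (-0.66, FDR 0.138, and -2.39, FDR 0.000243).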

How the data were processed

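Paired-end RNA-seq was made from pooled lens epithelial explants of WT (3), OVE853 (3) and OVE918 (4) libraries. After trimming with cutadapt 5.2 and alignment by STAR 2.7.11b to mm39, the authors deposited raw counts per gene, which featureCounts 2.0.8 made with reverse-stranded assignment, so genes on opposite strands were counted apart. Human transgene sequence was not counted separately. All columns of the count table belong to a sample.

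Tests on these counts used edgeR 4.0.16 (R 4.3.3): TMM factors, a no-intercept group design over all 10 libraries, robust dispersion, glmQLFit and glmQLFTest, Benjamini-Hochberg adjustment over all genes tested. Genes needed 2 FPKM in 5 libraries, with exon lengths from GENCODE vM39 (GRCm39) where the study used RefSeq lengths. Of 50763 genes, 43252 had a length by symbol, 22 by a synonym and 7489 had none. Standard errors are the fold change divided by the square root of F. SDs are between pooled libraries. Overlapping annotated genes that share exon bases with the 8 lie on the opposite strand, except 1 unconfirmed transcript on Tgfbr3 that is not in the count table.

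The 8 genes and the lists were chosen with earlier results of these data known. Named besides the 8 were DEGs of both lines in each list (at most 5, by the smaller fold change), the 5 genes (for Tgfb1) or 3 genes (for the other tested genes) of highest Pearson r with log2 CPM (prior count 2), and tested neighbours within 100 kb of Tgfb1; other markers, Ccn2 and Ltbp2 were named after their values were seen. Shares used exact permutation tests (scipy). The fit was tested on simulated data: of 200 genes changed 4-fold among 11097, 199 were recovered in OVE853 and 200 in OVE918. Smaller changes, genes below the FPKM limit and outlying libraries were not simulated. Alternatives were RLE and upper-quartile scaling, filterByExpr, 2 FPKM in 6 libraries, no filter, DESeq2 1.42.0, blocks by replicate number and by the R number of the study's library names, fits of 2 groups, and each library left out. For Tgfbr2, Eng and Acvrl1 these were combined with filterByExpr, a choice made after seeing the data.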

Additional observations from a re-analysis of the deposited data

Results flagged for a closer look

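The Tgfb1 row differed between the transgenic lines by a test of the difference itself. The 3 OVE853 libraries averaged 349 ± 11.3 CPM (SD) and the 4 OVE918 libraries 775 ± 78.0 CPM, a log2 fold change of 1.15 (edgeR's quasi-likelihood test, FDR 0.00388), and all 4 OVE918 libraries lay above all 3 OVE853 libraries. The difference passed with each of the 10 libraries left out in turn (1.08 to 1.19, FDR at most 0.0446). Mouse transcript and transgene reads cannot be told apart in it. The paper states that the transgene is active in fiber cells as well. The 12 lens fiber markers summed to 52800 to 82170 CPM in OVE853 and 77310 to 156900 CPM in OVE918. Their median log2 fold change was 0.96, and 0 of the 12 differed between the lines by edgeR, where 1.32% of all genes did. OVE918 replicates 1 and 4, the highest in Tgfb1, also had the highest fiber sums (144500 and 156900 CPM). The part of fiber cells in the Tgfb1 difference was not tested.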

How the results depend on the processing

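Of the 438 recomputed fold changes of the 8 genes, 404 kept their direction and side of the threshold. The calls of Tgfb1 and Tgfbr3 against WT held in all of them. The following did not, and the cause was not tested. Under the replicate block, Tgfb3 in OVE918 (0.45) and Acvrl1 in OVE918 (1.08) lost their call and 50 genes differed between the lines against 146, while no other call of the 8 genes changed. Same-numbered libraries did not deviate together (correlations of -0.303 to 0.084), so the numbers do not pair the libraries. The pairs that share an R number had correlations of -0.171 to 0.389. Under the R-number block, Tgfb3 (0.53) and Acvrl1 (1.24) in OVE918 lost their call, Tgfbr2 in OVE918 (0.92) gained one, Eng between the lines changed sign (-0.055), and 1029 genes differed in OVE853 and 50 between the lines. With only the 2 groups compared, Tgfb3 (0.57) and Acvrl1 (1.18) in OVE918 and Eng in OVE853 (1.52) lost their call, Tgfbr3 between the lines (-0.54) gained one, 2 of the 8 genes and 386 of all genes differed between the lines, and 1366 genes differed in OVE918. With DESeq2, Tgfb2 (-0.26) and Tgfbr2 (0.77) in OVE918 and Tgfbr3 between the lines (-0.55) gained a call, 2 of the 8 genes differed between the lines, and 957 genes in all. With no filter Acvrl1 in OVE918 (1.18) lost its call. With filterByExpr 5 of the 8 genes differed in OVE918 and 68 genes between the lines, and with upper-quartile factors 91. As DEGs, 491 of 1752 genes remained in OVE853, 621 of 2110 in OVE918 and 54 of 146 between the lines.

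With 1 library left out, the log2 fold change ranged from -0.33 to -0.21 for Tgfb2 in OVE918, 0.45 to 0.70 for Tgfb3 in OVE918, -0.028 to 0.288 for Tgfbr1 in OVE853 (negative without WT replicate 3), 1.27 to 1.94 for Eng in OVE853, -0.14 to 0.33 for Eng between the lines (negative without OVE853 replicate 2), 1.09 to 1.32 for Acvrl1 in OVE918 and -0.63 to -0.49 for Tgfbr3 between the lines. The number of the 8 genes that differed between the lines was 1 to 2. Over all genes 719 to 2555 differed in OVE853, 1484 to 2442 in OVE918 and 7 to 530 between the lines, so counts between the lines depend on single libraries. The 102 recomputed shares kept their direction (no adjusted p could pass in these designs), and 9 of 36 list counts moved by over 1.5 times. Acvrl1 had the fewest read pairs of the 8 genes, 12 to 38 per library.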
